A study of Mus musculus with 14 samples.

Results

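Expression of 10 homeobox genes of the mouse Hoxb and Hoxc clusters, Hoxb2, Hoxb3, Hoxb4, Hoxb5, Hoxc4, Hoxc5, Hoxc6, Hoxc8, Hoxc9 and Hoxc10, was examined in thymic cells that had lost Ezh2, p53 or both. The genes were taken as a named list, and their probes were found through the RefSeq accession that each array spot carries. Hoxb3 had 2 probes and each other gene had 1, giving 11 of 55681 probes, or 10 of 20972 genes named in this way. Each probe was counted as detected on an array where the scanner software marked its spot as well above background. The series holds 14 Agilent 1-colour arrays of C57BL/6 background, 1 array per sample.

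All donor marrow carried Cre-ERT2, a Cre recombinase that stays inactive until an oestrogen receptor ligand such as tamoxifen is given, and all recipients were lethally irradiated CD45.1+ wild-type mice. The groups were leukemic cells from 2 mice with early T cell precursor acute lymphoblastic leukemia (ETP-ALL, mouse 13 and mouse 19, genotype Ezh2Δ/Δp53Δ/Δ), and non-leukemic cells of 4 genotypes: Ezh2Δ/Δp53Δ/Δ (called double-deleted here), then Ezh2Δ/Δ, then p53Δ/Δ, and finally WT. WT cells carried Cre-ERT2 without floxed alleles. Deletion took place 4 weeks after transplantation. Non-leukemic CD4-CD8- thymocytes were harvested 3 months after it at 3 stages, of which DN1 was gated as CD44+CD25-, DN2 as CD44+CD25+ and DN3 as CD44-CD25+. The leukemic cells were sorted by the DN2 gate. Each genotype and stage had 1 array, the sources used here do not say whether a sample pooled several mice, and each leukemia stands for 1 mouse. A p between genotypes therefore measures agreement over 3 stages, which may have come from the same mice, and not the spread between mice.

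Hox genes encode homeodomain transcription factors that set position along the body axis, and they lie in 4 clusters whose order along the chromosome follows the order of their expression from head to tail. Where a cluster is silent, Polycomb repressive complex 2, whose catalytic subunit is Ezh2, marks it by methylation of histone H3 at lysine 27, while Trithorax proteins such as Kmt2a keep active Hox genes on. In blood, several Hoxa and Hoxb genes are expressed in stem and progenitor cells and are shut down as cells mature, and persistent HOX expression is a known feature of a group of acute leukemias, ETP-ALL among them.

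The promoters of Hoxb4, detected on every array, and of Hoxc4, which differed most between Ezh2-deleted and Ezh2-intact cells among the members, are shown because both hold CG dinucleotides, whose density is a known feature of Polycomb-bound promoters. Each line runs from 250 bases before to 50 bases after an annotated start, on the plus strand, in RefSeq's GRCm38.p6 annotation, with each CG in capitals. They lie at chr11:96318017-96318316 for Hoxb4 and at chr15:103034145-103034444 for Hoxc4, and the Hoxc4 start is 1 of several annotated for that gene.
Hoxb4: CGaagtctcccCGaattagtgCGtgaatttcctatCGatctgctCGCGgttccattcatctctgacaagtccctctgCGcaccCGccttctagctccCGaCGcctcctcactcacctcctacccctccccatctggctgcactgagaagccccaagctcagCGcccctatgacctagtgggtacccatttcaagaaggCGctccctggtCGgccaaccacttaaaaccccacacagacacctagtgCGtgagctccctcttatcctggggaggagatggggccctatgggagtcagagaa
Hoxc4: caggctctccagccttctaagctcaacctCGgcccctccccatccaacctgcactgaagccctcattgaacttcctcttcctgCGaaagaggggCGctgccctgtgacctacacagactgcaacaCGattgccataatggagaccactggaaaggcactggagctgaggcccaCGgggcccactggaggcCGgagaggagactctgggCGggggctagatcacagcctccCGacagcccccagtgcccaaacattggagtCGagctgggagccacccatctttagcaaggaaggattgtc
The Hoxb4 window held 14 CG dinucleotides and the Hoxc4 window 9, against a median of 7 over 32851 mouse promoter windows of the same length. As many CGs or more were found in 36.3% and 45.8% of all windows, so neither window was unusual in this measure. GC content was 58.0% for Hoxb4 and 60.3% for Hoxc4. On both strands, CACGTG and TATAAA were in neither window (7.15% and 13.6% of all windows hold them), and CCAAT, held by 37.4% of all windows, was found once, on the minus strand of Hoxc4. These are matches of letters and not binding sites, and the other 8 members were not matched.

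The arrays differed in brightness. On slide 2 the 6 arrays had a processed signal of 61.3 to 122.6 at the 75th percentile, and they hold all Ezh2Δ/Δ and p53Δ/Δ cells. On the other 8 arrays this signal was 270.9 to 524.2. Slide 1 holds the WT arrays and the double-deleted DN2 and DN3 arrays, slide 3 the double-deleted DN1 array, and slide 4 both leukemias. Slide and genotype cannot be told apart where Ezh2Δ/Δ or p53Δ/Δ cells are set against WT or double-deleted cells, nor slide and leukemia. Trp53, the gene of p53, was below background on the 3 p53Δ/Δ arrays and in leukemia 13, and lower in double-deleted cells (-3.86, -2.40 and -0.49) than in WT cells (0.11, 1.03 and 1.28). The Ezh2 probe was detected on all 14 arrays and checks no label, since the sources used here do not place it relative to the deleted part. Xist was detected only on the 3 Ezh2Δ/Δ arrays, where Ddx3y was below background, so comparisons with Ezh2Δ/Δ cells also differ in sex-linked transcripts. Between 12 and 15 of 15 probes of T lineage markers were detected on every array.

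All levels below are log2 values relative to the 75th percentile of the array, so 0 is the signal of a fairly bright probe and the lowest detected probe of an array lay between -3.97 and -2.78. Levels of different probes are not compared with each other. Of the 11 probes, 8 were detected in leukemia 13 and 5 in leukemia 19, 4 in each of the 3 double-deleted samples, 2, 1 and 1 in Ezh2Δ/Δ DN1, DN2 and DN3 cells, 1 in each p53Δ/Δ sample, and 3, 4 and 2 in WT DN1, DN2 and DN3 cells. Hoxb4 alone was detected on all 14 arrays, Hoxc4 and Hoxc6 on 8, Hoxc9 on 5 and 1 probe of Hoxb3 on 2. The other members were detected on 1 array or on none.

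**Figure D1:**
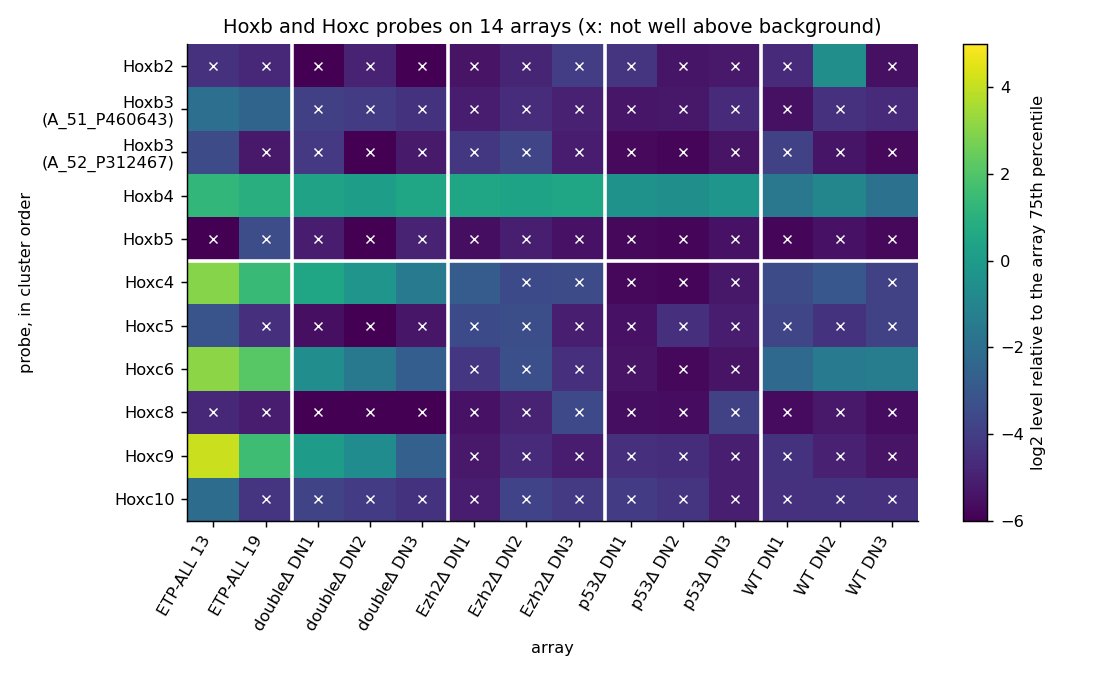
Log2 level of the 11 member probes (rows, in cluster order, Hoxb above Hoxc) on the 14 arrays (columns; doubleΔ stands for double-deleted, and Ezh2Δ and p53Δ for the single deletions), with a cross where the probe was not well above background. Hoxb4 is detected in every column, while Hoxc4, Hoxc6 and Hoxc9 are brightest in the leukemias and detected in all 3 double-deleted samples.

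Several members stayed dark. Hoxb5, which marks long-term stem cells in mouse marrow, and Hoxc8, which patterns the thoracic skeleton, were detected on 0 of 14 arrays, with signals between -6.05 and -3.39 for Hoxb5 and between -6.10 and -3.58 for Hoxc8. Hoxb2, which acts in hindbrain segments, was detected only in WT DN2 cells, at -0.57, against -6.12 to -4.01 on the other 13 arrays. Hoxc5, which acts in cervical motor neurons, was detected only in leukemia 13, at -3.15. Hoxc10, a gene of the lumbar spinal cord and hindlimb, was likewise detected only in leukemia 13, at -2.10, with leukemia 19 at -4.33 and the double-deleted samples at -3.73, -4.10 and -4.38. One array apart from the rest, as here for Hoxb2, Hoxc5 and Hoxc10, allows no test.

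Hoxb4, a factor that expands blood stem cells when overexpressed, stood at 0.34, 0.16 and 0.46 in DN1, DN2 and DN3 double-deleted cells and at 0.45, 0.36 and 0.45 in Ezh2Δ/Δ cells. In p53Δ/Δ cells its levels were -0.35, -0.52 and -0.23, and in WT cells they were -1.59, -0.95 and -1.89. The 6 Ezh2-deleted samples lay between 0.16 and 0.46 and did not overlap with the 6 Ezh2-intact samples, the highest of which was at -0.23. Over the 12 non-leukemic arrays, Ezh2-deleted cells (Ezh2Δ/Δ and double-deleted) exceeded Ezh2-intact cells (p53Δ/Δ and WT) by 1.29 ± 0.19 (SE, 6 arrays against 6, limma adjusted p = 0.00696), or 2.45-fold. Each side of this comparison has 3 arrays of slide 2, and the double-deleted DN1 array alone is on slide 3. A normexp background correction of the raw signals left it called at 0.88.

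By genotype, Hoxb4 was 3.46-fold higher in double-deleted than in WT cells (1.79 ± 0.27, 3 arrays against 3, adjusted p = 0.00695), 3.72-fold higher in Ezh2Δ/Δ than in WT cells (1.90 ± 0.27, adjusted p = 0.00096) and 2.15-fold higher in p53Δ/Δ than in WT cells (1.11 ± 0.27, adjusted p = 0.012). Within slide 1, the first of these differences was 1.73 ± 0.39 and did not pass (limma adjusted p = 0.156). That fit in effect sets the double-deleted DN2 and DN3 arrays against the WT DN2 and DN3 arrays. The WT DN1 array adds nothing to it, since slide 1 holds no double-deleted DN1 array. With array weights the third difference was 0.66 and did not pass (adjusted p = 0.0804). Double-deleted and Ezh2Δ/Δ samples overlapped, with a difference of -0.10 ± 0.27 (adjusted p = 0.798). Double-deleted cells stood 0.69 ± 0.27 above p53Δ/Δ cells without passing the test (adjusted p = 0.0795), and Ezh2Δ/Δ stood 0.79 ± 0.27 above p53Δ/Δ cells, on the same slide, likewise without passing (adjusted p = 0.149), though in both comparisons the samples did not overlap. The order of group means was leukemias 1.11 ± 0.23 (SD, n = 2), Ezh2Δ/Δ 0.42 ± 0.05, double-deleted 0.32 ± 0.15, p53Δ/Δ -0.37 ± 0.15 and WT -1.47 ± 0.48 (SD, n = 3 each). Of the neighbours in this order, only p53Δ/Δ and WT differed by the test among those tested, and their slides differ. Loss of p53, taken over p53-deleted against p53-intact cells, gave 0.50 ± 0.19 (adjusted p = 0.135).

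Hoxc4, a Hoxc gene that lymphocytes express, was detected in all double-deleted samples, at 0.45, -0.26 and -1.42 in DN1, DN2 and DN3 cells. In Ezh2Δ/Δ cells it stood at -2.81, -3.53 and -3.49, detected at DN1 only, and in p53Δ/Δ cells at -5.76, -5.83 and -5.30, detected in none. In WT cells it stood at -3.48, -3.03 and -3.88, detected at DN1 and DN2. The double-deleted samples were thus above all 9 others, and the p53Δ/Δ samples below all 9 others. Ezh2-deleted cells exceeded Ezh2-intact cells by 2.70 ± 0.29 (adjusted p = 0.00156), yet the 2 sides overlapped, since the Ezh2Δ/Δ and WT samples overlapped (0.19 ± 0.41, adjusted p = 0.749). This difference stayed called, at 0.99, under normexp background correction.

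In the separate comparisons, Hoxc4 was higher in double-deleted than in WT cells (3.05 ± 0.41, adjusted p = 0.0043) and higher in double-deleted than in Ezh2Δ/Δ cells (2.87 ± 0.41, adjusted p = 0.00133). No fold is given for either, since the probe was detected on only 2 of 3 WT arrays, near the detection limit, and on 1 of 3 Ezh2Δ/Δ arrays. Within slide 1 the first of these was 2.61 ± 0.25 and passed (adjusted p = 0.0443). Against p53Δ/Δ cells, where it was below background, only a bound can be given, and Hoxc4 was at least 8.15-fold higher in double-deleted cells (adjusted p = 3.68e-05). Such a bound divides the brighter group's mean by a floor, which on each array of the dimmer group is the lowest detected signal or the probe's own, whichever is higher, averaged over those arrays. Ezh2Δ/Δ exceeded p53Δ/Δ cells within slide 2 (2.36 ± 0.41, adjusted p = 0.0175). No bound is given here, since the probe was detected on only 1 of 3 Ezh2Δ/Δ arrays. This call was lost in a fit of slide 2 alone, where the difference was again 2.36 (± 0.34, adjusted p = 0.0732). It was also lost under normexp (0.38, adjusted p = 0.645) and in 5 of 12 fits without 1 array. Hoxc4 was also lower in p53Δ/Δ than in WT cells (-2.17 ± 0.41, adjusted p = 0.00388), again with no fold. Under normexp this last difference turned to 0.35.

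**Figure D2:**
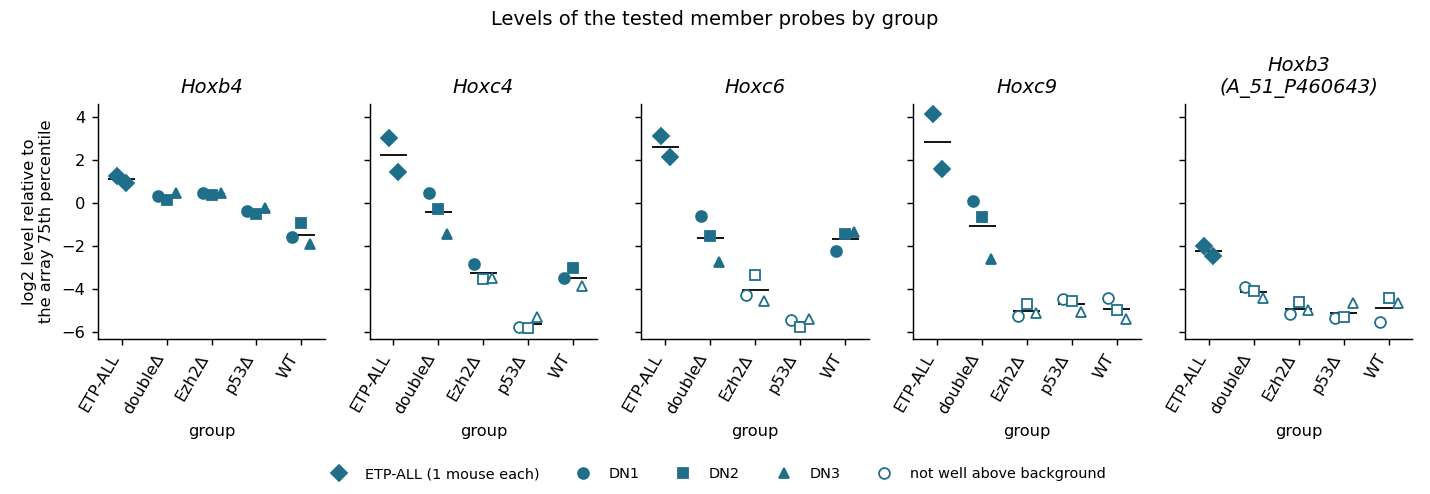
Log2 level (vertical axis, relative to the 75th percentile of the array) of the 5 tested member probes in ETP-ALL, double-deleted (doubleΔ), Ezh2Δ/Δ, p53Δ/Δ and WT samples, with a symbol for each stage or leukemia, open where not well above background, and a line at the group mean. Hoxb4 is lowest in the 3 WT samples, and Hoxc9 is detected only in the leukemias and the double-deleted samples.

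Unlike Hoxc4, Hoxc6, which acts in motor neurons that supply the forelimb, was not called in double-deleted against WT cells. It stood at -0.62, -1.54 and -2.72 in DN1, DN2 and DN3 double-deleted cells and at -2.24, -1.43 and -1.33 in WT cells, detected in all 6. In Ezh2Δ/Δ cells its signals were -4.26, -3.32 and -4.54 and in p53Δ/Δ cells -5.43, -5.78 and -5.41, all 6 below background. Double-deleted and WT samples overlapped (0.04 ± 0.51, adjusted p = 0.966), and both lay above all 6 samples of slide 2. Hoxc6 was at least 2.96-fold higher in double-deleted than in Ezh2Δ/Δ cells (adjusted p = 0.00845) and at least 3.51-fold higher in double-deleted than in p53Δ/Δ cells (adjusted p = 0.000771). It was at least 2.87-fold lower in Ezh2Δ/Δ than in WT cells (adjusted p = 0.00779) and at least 3.41-fold lower in p53Δ/Δ than in WT cells (adjusted p = 0.000576). All 4 of these comparisons set slide 2 against the other slides, and under normexp background correction none of the 4 passed. In the comparison balanced over slides, Ezh2-deleted cells stood 0.77 ± 0.36 above Ezh2-intact cells (adjusted p = 0.281), and p53-deleted cells stood at -0.73 ± 0.36 relative to p53-intact cells (adjusted p = 0.241).

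Hoxc9, which sets thoracic identity of spinal motor neurons, was detected among non-leukemic cells only in the double-deleted samples, at 0.08, -0.65 and -2.62 in DN1, DN2 and DN3 cells. Its signals lay between -5.24 and -4.69 in Ezh2Δ/Δ, between -5.08 and -4.46 in p53Δ/Δ and between -5.41 and -4.40 in WT cells, all below background. It was at least 5.14-fold higher in double-deleted than in WT cells (adjusted p = 0.00236), at least 4.38-fold higher in double-deleted than in Ezh2Δ/Δ cells (adjusted p = 0.000406) and at least 5.19-fold higher in double-deleted than in p53Δ/Δ cells (adjusted p = 0.000576). Neither single deletion gave a difference from WT that passed the test, with -0.08 ± 0.45 in Ezh2Δ/Δ cells (adjusted p = 0.905) and 0.23 ± 0.45 in p53Δ/Δ cells (adjusted p = 0.722). Because the 3 double-deleted arrays count on the deleted side of both, Hoxc9 was higher with Ezh2 deletion (1.78 ± 0.32, adjusted p = 0.0178) and with p53 deletion (2.09 ± 0.32, adjusted p = 0.0103) in the 6 against 6 comparisons, where the deleted and intact samples overlapped. It entered the test only through the double-deleted and leukemic arrays, so that its calls against the dark groups follow in part from the filter. Within slide 1 the difference between double-deleted and WT cells was 3.56 ± 0.46 and did not pass (adjusted p = 0.0656), and under normexp the call was kept against WT at 1.21 and lost in the other 4 comparisons of non-leukemic cells that had called it.

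Hoxb3, which neighbours Hoxb4 and is also expressed in blood stem cells, entered the test only through the leukemias, by its probe A_51_P460643. That probe was below background on all 12 non-leukemic arrays, at -3.90, -4.10 and -4.41 in double-deleted cells and at -5.52, -4.43 and -4.66 in WT cells. The fit called it higher in double-deleted than in p53Δ/Δ cells (0.97 ± 0.32, adjusted p = 0.0441), with both groups below background, and the sign turned to -1.07 under normexp background correction. The second probe, A_52_P312467, was detected in leukemia 13 only, at -3.44.

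Among the 5 tested member probes, 3 were called higher and 0 lower in double-deleted against WT cells (Hoxb4, Hoxc4 and Hoxc9), where 6.85% of 31526 tested probes were called. With Ezh2 deletion over all 12 arrays 3 were called higher (the same 3), where 3.87% were called, and with p53 deletion 1 was called (Hoxc9), where 7.41% were. In the comparisons that cross slides the background was much higher. There, 2 members were called in Ezh2Δ/Δ against WT (34.5% of all probes), 3 in p53Δ/Δ against WT (36.3%), 4 in double-deleted against p53Δ/Δ (31.6%) and 3 in double-deleted against Ezh2Δ/Δ cells (30.6%). Within slide 2, Ezh2Δ/Δ against p53Δ/Δ cells gave 1 called member, Hoxc4, where 3.87% of probes were called. Hoxb3 and Hoxc9 reached the test only through groups where they were high, so these counts describe the 5 probes and not the 10 genes. The members were also chosen with earlier results of these data known. Here and below, a count of members beside the share over all probes is therefore a description and no test of the list. Comparisons of 1 group with several others share that group's arrays. A test of whether the change with Ezh2 deletion differed between p53-deleted and p53-intact cells called 4 of the 5, where 45.9% of all probes were called, and there slide and interaction cannot be told apart.

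**Figure D3:**
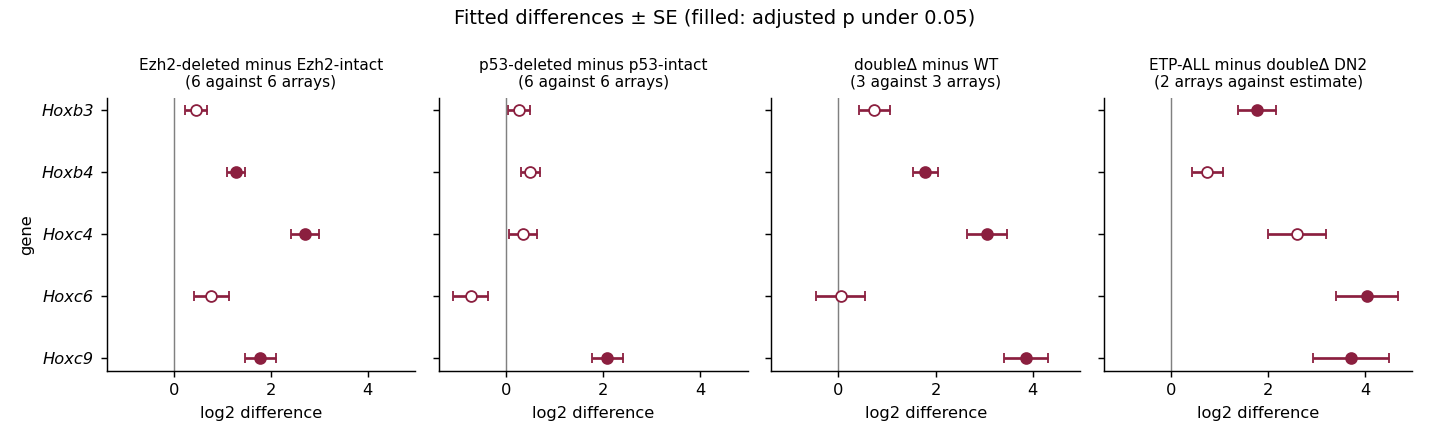
Fitted log2 differences (horizontal axis, with SE bars) of the 5 tested genes for Ezh2-deleted minus Ezh2-intact cells, p53-deleted minus p53-intact cells, double-deleted (doubleΔ) minus WT cells, and ETP-ALL minus the double-deleted DN2 estimate, filled where the adjusted p passed. Hoxb4 and Hoxc4 are filled for Ezh2 deletion and not for p53 deletion, while Hoxc9 is filled in all 4 panels.

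Stage was compared over 4 arrays against 4. No member passed the limma test between DN2 and DN1, where differences lay between -0.26 and 0.37 and 1.31% of probes were called, nor between DN3 and DN2, where they lay between -0.84 and -0.07 and 0.0222% were called. At an unadjusted p under 0.05, 0 of 5 members and 6412 of all probes differed in the first step, and 0 of 5 members and 2005 of all probes in the second. Within double-deleted cells alone, Hoxc4, Hoxc6 and Hoxc9 were each lower at DN2 than at DN1 and lower at DN3 than at DN2. From their single arrays, the DN1 level was 3.67-fold, 4.29-fold and 6.50-fold the DN3 level for these 3 genes in that order. Hoxb4 did not share this order, with a DN1 level 0.918 times the DN3 level, and WT cells did not show it for Hoxc4 or Hoxc6. Signals of Hoxc9 had this order in WT cells (-4.40, -4.97 and -5.41) and in p53Δ/Δ cells (-4.46, -4.57 and -5.08), all below background. In double-deleted cells the signals of the Hoxb3 probe A_51_P460643 and of Hoxc10 also had this order, below background. So did 18.2% of all 31526 tested probes. With 1 array per genotype and stage the order could not be tested, and the double-deleted DN1 array alone lay on slide 3. Of 14 probes of stem and early progenitor markers, 13, 9 and 10 were detected in DN1, DN2 and DN3 double-deleted cells, with summed signals of 21.8, 11.8 and 8.92 times the 75th percentile, against 10, 6 and 3 probes in WT cells, with summed signals of 19.9, 22.8 and 1.84. Of 11 probes of NK and innate lymphoid markers, 10, 4 and 3 were detected in double-deleted and 10, 1 and 2 in WT cells at these stages, with summed signals of 28.6, 2.60 and 2.16 in double-deleted and 214, 1.98 and 0.70 in WT cells. The part of such cells in the levels was not tested, and in sorted bulk samples fewer expressing cells and less RNA per cell cannot be told apart.

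In the 2 leukemias, Hoxc4, Hoxc6 and Hoxc9 stood higher than in any other sample, while Hoxc5, Hoxc8 and Hoxc10 did not do so in both. Hoxc4 was at 3.01 in leukemia 13 and 1.43 in leukemia 19, Hoxc6 at 3.11 and 2.15, and Hoxc9 at 4.13 and 1.60. Leukemia 13 exceeded leukemia 19 for all 3, and the lower of the 2 was in each case above the highest non-leukemic sample, double-deleted DN1. Hoxb4, at 1.27 in leukemia 13 and 0.94 in leukemia 19, and the Hoxb3 probe A_51_P460643, at -1.97 and -2.45, were also above all 12 non-leukemic arrays. This Hoxb3 probe was detected on the leukemic arrays alone. Of all 31526 tested probes, 19.8% stood higher in both leukemias than on every double-deleted array. The share over all 12 non-leukemic arrays was not computed.

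Relative to the double-deleted DN2 level that the additive fit estimates, Hoxc6 was 16.6-fold higher in the leukemias (4.05 ± 0.64, 2 leukemic arrays in a fit of 14, adjusted p = 0.0126) and Hoxc9 13.1-fold higher (3.72 ± 0.78, adjusted p = 0.0407). Hoxb3 was called higher by the same fit (1.78 ± 0.39, adjusted p = 0.0469). Against the double-deleted DN2 array itself, where Hoxb3 was below background, its mean level in the leukemias was at least 3.39-fold higher. In the fit, Hoxc4 missed the threshold (2.60 ± 0.60, adjusted p = 0.0581), as did Hoxb4 (0.75 ± 0.32, adjusted p = 0.258). The SE and p of this fit rest mostly on departures from additivity among the non-leukemic arrays. Only a small part comes from the spread between the 2 leukemias. Hoxc4 passed under normexp (2.28, adjusted p = 0.0255), where probes had to be detected on 7 arrays (2.60, adjusted p = 0.0494) and without leukemia 19 (3.39). Thus 3 of 5 tested members were called, where 2.34% of all probes were, and Hoxb3 had reached the test through these same leukemic arrays. Leaving out 1 array at a time, Hoxc6 lost its call without leukemia 13 and without the double-deleted DN2 array, Hoxc9 in 11 of 14 cases and Hoxb3 in 12 of 14. Against the mean of the 3 double-deleted arrays with no stage term, 0 members were called, at differences of 4.25 for Hoxc6 (adjusted p = 0.0868), 3.92 for Hoxc9 (adjusted p = 0.177) and 1.92 for Hoxb3 (adjusted p = 0.0736). On single arrays, Hoxc6 in leukemias 13 and 19 was 25.1-fold and 12.9-fold its level in double-deleted DN2 cells, and 13.2-fold and 6.78-fold that in double-deleted DN1 cells. For Hoxc9 the ratios were 27.4 and 4.74 to DN2 and 16.5 and 2.86 to DN1.

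Leukemia 13 held the widest set of members, with Hoxc5, Hoxc10 and the second Hoxb3 probe detected there alone. It also differed in markers of other cells: of 12 probes of thymic stroma and endothelium markers, 7 were detected in leukemia 13 and 3 in leukemia 19, against 5, 4 and 4 in DN1, DN2 and DN3 double-deleted cells. Their summed signal was 20.8 and 14 times the 75th percentile in leukemias 13 and 19, and 5.94 to 9.40 in double-deleted cells. Cdh5, Col3a1 and Pdgfra, of endothelium and fibroblasts, were detected in leukemia 13 alone, at 1.1, -1.42 and -2.56, while Krt8 of epithelium was below background on all 14 arrays. Other markers of the list did not follow: Pecam1 of endothelium was at -0.87 in leukemia 13 and 0.25 in leukemia 19, against 0.61, -0.53 and -0.91 in DN1, DN2 and DN3 double-deleted cells, and Col1a1 of fibroblasts was below background in both leukemias and detected in double-deleted DN1 and DN3 cells, at -2.96 and -3.80. Epcam of epithelium, unlike Krt8, stood at 0.76 and 0.78 in leukemias 13 and 19, and was called higher there (3.27). In DN1, DN2 and DN3 double-deleted cells Epcam was at -3.06, -2.88 and -1.07, though WT DN3 cells reached 0.08. The Krt5 probe A_51_P186856, also of epithelium, was detected in leukemia 13 at -3.03 and in double-deleted DN1 and DN2 cells at -3.78 and -3.48. The part of such cells in the Hox levels of the leukemias was not tested. In leukemia 19, Cdh5, Col3a1 and Pdgfra were below background. Pdgfrb, of pericytes and fibroblasts, was at 3.96 in leukemia 13 and 3.42 in leukemia 19, against 1.96 to 3.01 in double-deleted cells.

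**Figure D4:**
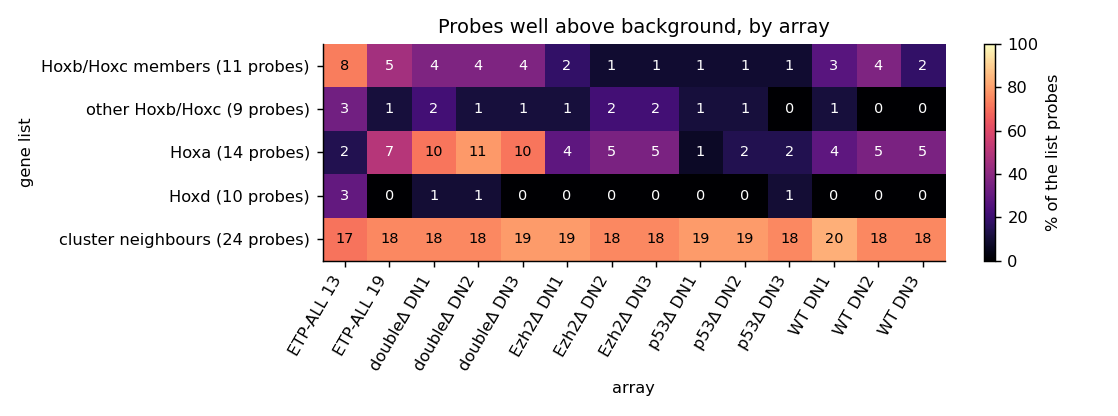
Number of probes well above background (printed in each cell, shaded by its percentage of the list) for the members, the other Hoxb and Hoxc genes, Hoxa genes, Hoxd genes and genes that flank the clusters, by array (doubleΔ stands for Ezh2Δ/Δp53Δ/Δ). Of the members, 8 of 11 are detected in leukemia 13 and 1 of 11 in each p53Δ/Δ sample, while the flanking genes stay between 17 and 20 of 24.

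Genes around the members were examined for comparison. Of 9 probes of the other Hoxb and Hoxc genes, 4 were tested, and Hoxb13, the most posterior Hoxb gene, resembled Hoxc9: it was detected only in the leukemias (0.94 and -0.45) and in double-deleted cells (-0.01, -1.19 and -1.72), at least 5.47-fold above WT cells (adjusted p = 0.000549). Like Hoxc9 it reached the test only through the double-deleted and leukemic arrays. Hoxb6 went another way, detected in all 3 Ezh2Δ/Δ samples and in p53Δ/Δ DN2 cells but in no double-deleted, leukemic or WT sample. It was at least 2.11-fold higher in Ezh2Δ/Δ than in WT cells (limma adjusted p = 0.000317), a comparison that crosses slides. Since Hoxb6 reached the test only through Ezh2Δ/Δ and p53Δ/Δ arrays, this call follows in part from the filter. Of 11 tested Hoxa probes, 5 were higher and 0 lower in double-deleted than in WT cells, where 6.85% of all probes were called (list median 1.34, against -0.07 over all probes), with Hoxa10 at least 2.13-fold higher. Hoxa10 likewise reached the test only through the double-deleted arrays and leukemia 19. In p53Δ/Δ against WT cells 1 Hoxa probe was higher and 4 were lower, Hoxa7 by -4.96, in a comparison that crosses slides and called 36.3% of all probes. Of 10 Hoxd probes 1 was tested, and it was called in none of the comparisons. Of 20 tested probes of genes that flank the Hoxb and Hoxc clusters, such as Skap1, Snx11, Cbx5 and Smug1, 0 were called in double-deleted against WT cells (list median 0.10, with 6.85% of all probes called) and 0 with Ezh2 deletion (list median 0.15, against -0.01 over all probes, with 3.87% called), by the same limma fits. At an unadjusted p under 0.05, 2 of these 20 differed in the first of these comparisons and 3 in the second. In comparisons that cross slides, 8 of them were higher and 1 lower in Ezh2Δ/Δ than in WT cells (list median 0.73, against 0.19 over all probes, with 34.5% called), and 1 was higher and 5 lower in double-deleted than in Ezh2Δ/Δ cells (list median -0.54, against -0.16, with 30.6% called).

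Over the 14 arrays, Hoxc4 and Hoxc6 varied together (Pearson r = 0.90, and 0.78 over the 12 non-leukemic arrays), whereas Hoxb4 had r of 0.62 with Hoxc4 and 0.32 with Hoxc6, and 0.38 and -0.24 without the leukemias. Among 16252 named probes detected on at least 7 arrays, those most like Hoxb4 were Fzd6 (r = 0.96), Dst (0.95) and Rab15 (0.95). Those most like Hoxc4 were Nectin2 (0.96), Treml2 (0.95) and Cpt2 (0.91), and those most like Hoxc6 were Slc6a20a (0.95), Herc6 (0.94) and Nr1i3 (0.93). These values describe arrays that share slides, genotypes and stages, and no p is given.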

How the data were processed

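Per the labels' protocols, 20 ng of total RNA per sample gave Cy3-labelled cRNA. Per the file headers, the authors read the arrays with Feature Extraction 10.7.1.1 (array grid mm9), which made the deposited processed intensity of each spot, background-subtracted and not scaled between arrays. The deposited raw spot and local background intensity and the flags that mark a spot as saturated, as an outlier or as well above background were also used. The authors' deposited value table holds linear signal values that match the processed intensity divided by 1 constant per array (75th percentile 1.002 to 1.004, column medians 0.065 to 0.105), is not centred, and served as an alternative. The sources used here do not say how the authors scaled it.

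Here, outlier and control spots were left out, spots of 1 probe were averaged, and log2 of the intensity minus the 75th percentile of the array over 55681 probes was used. The scanner files hold no gene names, so probes were named by RefSeq accession through the GRCm38.p6 gene table, which gave 27656 probes 1 symbol and none several. On single arrays 40.3% to 50.4% of probes were detected, and no probe was saturated. Every member probe was kept, and of the gene lists the called genes with the largest changes were named, apart from some that are not reported here. The members and lists were chosen with earlier results of these data known.

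Probes well above background on at least 2 of 14 arrays (31526) were tested one by one with limma 3.58.1 (lmFit and eBayes, Benjamini-Hochberg adjustment over all tested probes, threshold 0.05) in R 4.3.3. Genotype and stage were additive terms over the 12 non-leukemic arrays (6 residual and 2.96 prior degrees of freedom). The leukemias were compared with the DN2 stage of double-deleted cells by fitting all 14 arrays (7 residual and 2.80 prior degrees of freedom). The fits were tested on simulated data over 31526 probes. These had independent normal noise around each probe's mean, and no slide, genotype or stage effects apart from the added changes. Of 100 probes changed by a log2 value of 2, the fit recovered 56% for double-deleted against WT, 70% for Ezh2 deletion and 40% for leukemia, and of 100 changed by 4 it recovered 90%, 95% and 85%. In the same order of comparisons, 7, 16 and 7 unchanged probes were called. Slide effects were not simulated, so these rates do not give the power in the real arrays, where slide and genotype are partly confounded. Precision is limited by how few arrays there are. Alternatives were 2 other scalings, normexp background correction (offset 50), the authors' table, no filter or a filter of 7 arrays, 1 probe per gene, array weights, slide as a fixed or random block, single slides, and leaving out each array. The slide as a random block, the fit of the 5 double-deleted arrays with no stage term and the test of the Ezh2 by p53 interaction were added after the data were seen.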

Additional observations from a re-analysis of the deposited data

Results flagged for a closer look

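The change that came with Ezh2 deletion differed between p53-deleted and p53-intact cells for 4 of the 5 tested members, by a test of the difference itself that was added after the data were seen. For Hoxc6 the change was 3.92 among p53-deleted cells (double-deleted against p53Δ/Δ) and -2.37 among p53-intact cells (Ezh2Δ/Δ against WT), a difference of 6.29 ± 0.72 (SE, limma adjusted p = 0.000191). For Hoxc4 the changes were 5.22 and 0.19, a difference of 5.04 ± 0.58 (adjusted p = 0.000195). For Hoxc9 they were 3.64 and -0.08, a difference of 3.72 ± 0.64 (adjusted p = 0.00174), and for Hoxb4 they were 0.69 and 1.90, a difference of -1.21 ± 0.38 (adjusted p = 0.0281). Hoxc9 was below background in Ezh2Δ/Δ, p53Δ/Δ and WT cells and reached the test only through double-deleted and leukemic arrays. Its call here thus follows in part from the filter. Hoxc4 was below background in p53Δ/Δ cells, and Hoxc6 in Ezh2Δ/Δ and p53Δ/Δ cells. Changes that involve these groups therefore rest on signals below background and are not measured sizes. Each difference also equals double-deleted and WT arrays, on slides 1 and 3, against Ezh2Δ/Δ and p53Δ/Δ arrays, on slide 2, so interaction and slide cannot be told apart, and 45.9% of all 31526 probes were called in this test. Under normexp background correction 2 members were called, Hoxb3 and Hoxb4. The Hoxb4 call was lost with array weights (-0.75, adjusted p = 0.103), with scaling on probes detected on all arrays (-0.92, adjusted p = 0.111) and in 8 of 12 fits without 1 array (-1.53 to -0.95).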

How the results depend on the processing

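The number of members called changed by over 1.5 times under few settings. In double-deleted against WT cells it was 1 within slide 1, against 3. In double-deleted against p53Δ/Δ cells it was 2 when probes had to be detected on 7 arrays, against 4, and in double-deleted against Ezh2Δ/Δ cells 5 with no filter, against 3. In Ezh2Δ/Δ against p53Δ/Δ cells it was 0 under normexp and 0 within slide 2, and 0 to 1 with 1 array left out. For p53 deletion it was 0 with the filter of 7 arrays. For the leukemias it was 0 without a stage term, 1 with no filter, and 0 to 3 with 1 array left out, the 0 arising without double-deleted DN2 and without leukemia 13. For the interaction it was 2 under normexp. The causes were not tested, apart from the filters, which change how many probes are tested. With 1 array left out, the number was 3 to 4 for double-deleted against p53Δ/Δ cells, 2 to 3 for Ezh2 deletion and 3 to 4 for the interaction.

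Of 556 member differences recomputed under other settings, 36 changed sign, and 3 of these had been called. Normexp gave most: the sign turned for Hoxb3 (-0.37) and Hoxc6 (-0.042) in double-deleted against WT, Hoxb3 (0.88) and Hoxc9 (0.87) in Ezh2Δ/Δ against WT, Hoxb3 (0.70) and Hoxc4 (0.35) in p53Δ/Δ against WT, Hoxb3 in double-deleted against p53Δ/Δ (-1.07) and against Ezh2Δ/Δ (-1.24), Hoxc9 in Ezh2Δ/Δ against p53Δ/Δ (0.22), Hoxb3 for Ezh2 deletion (-0.095) and p53 deletion (-0.27), and Hoxb3 (-1.95) and Hoxc9 (-0.31) in the interaction. With array weights it turned for Hoxc6 in double-deleted against WT (-0.096), Hoxc4 (-0.10) and Hoxc9 (0.42) in Ezh2Δ/Δ against WT, Hoxc6 from DN1 to DN2 (-0.16) and Hoxb4 from DN2 to DN3 (0.0061). With slide as a fixed block it turned for Hoxc6 in double-deleted against WT (-0.58) and for Hoxc4 (0.023) and Hoxc9 (0.15) from DN1 to DN2, and as a random block (correlation -0.118) for Hoxb3 (0.0061) and Hoxc9 (0.0047) in Ezh2Δ/Δ against WT. Within slide 1 it turned for Hoxc6 in double-deleted against WT (-0.75), and within slide 2 for Hoxb4 (-0.13) and Hoxc9 (0.22) from DN1 to DN2 and Hoxb3 (0.14), Hoxb4 (0.19) and Hoxc4 (0.28) from DN2 to DN3. Scaling on probes detected on all arrays shifted every probe by -0.23 in Ezh2Δ/Δ against WT, 0.20 in double-deleted against Ezh2Δ/Δ, -0.13 in Ezh2Δ/Δ against p53Δ/Δ and from DN1 to DN2, and 0.29 in the interaction, and turned Hoxc4 in Ezh2Δ/Δ against WT (-0.042), Hoxb4 in double-deleted against Ezh2Δ/Δ (0.096) and Hoxb4 (-0.085) and Hoxc6 (-0.014) from DN1 to DN2. Quantile normalization turned Hoxb3 in p53Δ/Δ against WT (0.0013), in Ezh2Δ/Δ against p53Δ/Δ (-0.12) and from DN2 to DN3 (0.027).

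With 1 array left out, 24 of 730 member differences changed sign, none of them called. The ranges were -0.58 to 0.58 for Hoxc6 in double-deleted against WT, -0.33 to 0.15 for Hoxb3, -0.022 to 0.45 for Hoxc4 and -0.44 to 0.35 for Hoxc9 in Ezh2Δ/Δ against WT, -0.22 to 0.030 for Hoxb4 in double-deleted against Ezh2Δ/Δ, -0.041 to 0.44 for Hoxb3 and -0.66 to 0.13 for Hoxc9 in Ezh2Δ/Δ against p53Δ/Δ, -0.19 to 0.15 for Hoxb4, -0.47 to 0.023 for Hoxc4, -0.21 to 0.58 for Hoxc6 and -0.54 to 0.15 for Hoxc9 from DN1 to DN2, and -0.25 to 0.11 for Hoxb3 and -0.17 to 0.18 for Hoxb4 from DN2 to DN3. Hoxb4 and Hoxc4 kept their calls for Ezh2 deletion under all 10 other settings (0.88 to 1.32 and 0.99 to 2.85) and all 12 omissions, and Hoxc4 in double-deleted against WT under all 11 other settings (1.60 to 3.21) and all 12 omissions. Hoxc9 lost its call for Ezh2 deletion under normexp and in 4 of 12 omissions.

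Over all probes, the number called ranged from 497 to 13597 for double-deleted against WT (2159 in the fit reported), from 683 to 5090 for Ezh2 deletion (1220), from 494 to 7911 for p53 deletion (2336) and from 119 to 1683 for the leukemias (738). No paired analysis was possible because each genotype and stage has 1 array, so the groups compared share fewer than 2 replicate numbers; stage is already a term of the fits, apart from the one run without it. Members below background have only bounds, and on any slide a signal below background does not show absence. At the 75th percentile the processed signals of slide 2, 61.3 to 122.6, were of the size of the normexp offset of 50. What this did to the normexp results was not tested.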

Other observations

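Pbx3, a homeodomain partner of HOX proteins, stood at 1.1, 1.78 and 1.53 in DN1, DN2 and DN3 double-deleted cells and at -1.67, -5.34 and -4.61 in WT cells, the last 2 below background. It was higher in double-deleted than in WT cells (5.34 ± 0.70, SE, limma adjusted p = 0.0039) and also higher than in WT cells in Ezh2Δ/Δ cells (4.70, adjusted p = 0.0013) and in p53Δ/Δ cells (4.17, adjusted p = 0.00214), both across slides. Over 12 arrays it was higher with Ezh2 deletion (2.94 ± 0.50, adjusted p = 0.0137) and with p53 deletion (2.41 ± 0.50, adjusted p = 0.0256). The WT arrays are on the intact side of both comparisons, so these calls are not separate results. Pbx3 was at 0.92, 1.05 and 0.49 in DN1, DN2 and DN3 Ezh2Δ/Δ cells and at 0.83, -0.25 and 0.30 in p53Δ/Δ cells. No comparison among the deleted genotypes called it. It was detected in leukemia 13 at -1.40 and in leukemia 19 at 0.75.

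Of 21 tested probes of Polycomb and Trithorax regulators, 2 were higher and 0 lower with Ezh2 deletion, where 3.87% of all probes were called (list median 0.16), and both belonged to Bmi1, a subunit of Polycomb repressive complex 1. They rose by 1.78 ± 0.19 (adjusted p = 0.00138) and 1.55 ± 0.21 (adjusted p = 0.00489), with no overlap between the 6 Ezh2-deleted and 6 Ezh2-intact arrays for either.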
